A study of Xenopus laevis with 31 samples.

Results

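Transcripts that are low in the egg, high in the gastrula and low again in the neurula, and that do not separate the animal from the vegetal side of the embryo, were described across 31 Affymetrix arrays of the frog Xenopus laevis. They are 57 of the 15491 non-control probe sets, each a group of short probes designed against 1 transcript cluster. A probe set was taken when its mean log2 intensity in stage 11 control embryos was at least 1.5 above that in eggs and at least 1.5 above that in stage 18 control embryos. Its vegetal and animal cap explants also had to differ by less than 1 on the log2 scale, and it was dropped if equatorial explants lay 1 or more above both. By the stage thresholds alone, 148 probe sets qualified. Of these, 59 were higher by 1 or more in vegetal explants, 29 were higher by 1 or more in animal caps, and 3 were highest in equatorial explants.

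A frog egg carries maternal RNA, and transcription from the embryo's own genome begins in the blastula. Stage 11 falls in gastrulation, when the germ layers move into place, and stage 18 falls in neurulation, when the neural plate folds. Vegetal cells give rise to endoderm under the control of Nodal ligands and of the transcription factors Mixer and Sox17, equatorial cells give rise to mesoderm, and the animal cap gives rise to ectoderm.

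Injected embryos of 3 kinds were collected at stage 11, after vegetal injection at the 2-cell stage. Cerberus-Short embryos (n = 3) received 1 ng of RNA for a shortened form of the secreted protein Cerberus that blocks Nodal ligands. Mixer-MO embryos (n = 2) were given an antisense morpholino against Mixer at 40 ng, although the title of replicate 1 reads 32 ng. Sox17-MO embryos (n = 3) received 3 morpholinos against Sox17, at 20 ng each. Explants were vegetal endoderm (n = 2), equatorial tissue (n = 2) and animal caps (n = 3), the caps isolated at stage 9 and cultured to stage 11. Whole samples were eggs (n = 3), stage 11 control embryos (n = 9) and stage 18 control embryos (n = 4). The labels name no injection for the controls, and the title of 1 of them begins with Uninj. A control-injected counterpart to the injected groups could therefore not be identified. Each sample pooled about 20 siblings of a single mating, or about 50 explants. Which pools came from the same mating is not stated, and the p-values below therefore reflect only how much these pools varied.

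None of the probe sets could be paired with a gene in the annotation used here (0 matched), so members are given by their identifiers and no role is stated for any of them. The injected groups could not be checked at their targeted genes for the same reason, nor could the explants be checked at marker genes. Array medians of intensity ran from 65.1 to 77.6. Vegetal replicate 2 stood apart from the other arrays, with a median over all probe sets 0.15 (log2) above the stage 11 control mean. Its 3' minus 5' beta-actin difference was 1.70 (log2), against -1.50 in vegetal replicate 1, though Mixer-MO replicate 2 had 1.49. For the Gapd control probe sets, that difference was 3.38, 3.60, 3.44 and 1.84 in stage 18 replicates 1 to 4. It was 1.94 to 2.33 in eggs and 1.65 to 3.90 in stage 11 controls. The part of RNA quality in the stage profile was not tested. The members' identifiers name 56 clusters, with Xl.1065.1.S1_at and Xl.1065.1.S1_s_at sharing 1. Of endings that mark probes shared between transcripts, 1 member ended in _s_at (1.75%, against 2.21% of all probe sets) and 3 in _x_at (5.26%, against 3.58%). Another 2 ended in _a_at (3.51%, against 3.46% of all probe sets).

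The stage profile is what chose the members, so it is described here without a test. Their mean in stage 11 controls exceeded that in eggs by a median of 2.28 on the log2 scale (range 1.51 to 7.53), a fold of 4.86 (2.84 to 185). The top of that range, Xl.8108.1.A1_at, is uncertain. Its group intensity in eggs was only 13.4, and the reading of an egg value was undecided. The members' stage 11 mean exceeded that in stage 18 controls by a median of 2.1 (range 1.51 to 5.23), a fold of 4.29 (2.84 to 37.5). Most members sat close to the thresholds: the smaller of both differences was below 2 in 34, between 2 and 3 in 15 and at least 3 in 8. In 49 members every stage 11 control array lay above every egg array and every stage 18 array, which held for 2.79% of all probe sets. In a pool of whole embryos, fewer cells of a type and less RNA per cell cannot be told apart.

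The 2 largest values of the smaller difference belonged to Xl.4957.1.S1_at and Xl.4131.1.A1_at. Xl.4957.1.S1_at had intensities of 73.5, 60.5 and 60.1 in eggs, of 2501 to 4803 with a median of 3973 in stage 11 controls, and of 145.4, 164.6, 68.6 and 64.3 at stage 18. Xl.4131.1.A1_at had 38.2, 32.7 and 40.6 in eggs, 922.1 to 2911 with a median of 1673 in stage 11 controls, and 73.2, 43.6, 57.8 and 39.5 at stage 18. Neither had any overlap between stage 11 and the other stages. Stage 11 controls exceeded eggs 59.1-fold for Xl.4957.1.S1_at and 49.7-fold for Xl.4131.1.A1_at, and stage 18 controls 37.5-fold and 35.4-fold in the same order. At the other end, Xl.18997.1.A1_at had 23.2, 51.6 and 39.6 in eggs, 86.9 to 172.2 with a median of 117.9 in stage 11 controls, and 50.0, 27.5, 46.0 and 55.1 at stage 18. Even there, no stage 11 control array reached down to the other stages.

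**Figure D1:**
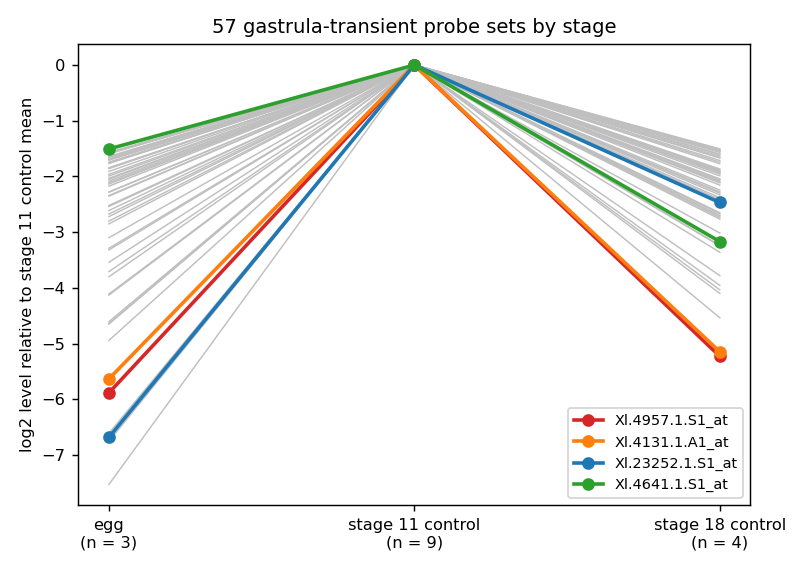
Mean log2 level of each of the 57 members in eggs, stage 11 controls and stage 18 controls, relative to its own stage 11 control mean; grey lines are single members and the coloured lines are named in the key. Every line peaks at stage 11 because the members were chosen that way, while the low ends differ, with Xl.23252.1.S1_at lower in eggs than at stage 18 and Xl.4641.1.S1_at the reverse.

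The rule did not fix how the egg and stage 18 levels compare with each other. Egg and stage 18 means lay within 1 (log2) in 39 members. In 12 members the egg mean was at least 1 lower than stage 18, and in 6 it was at least 1 higher. Over all 57, egg minus stage 18 had a median of -0.25, against -0.02 over all probe sets. Egg and stage 18 arrays did not overlap in 19 members, where 53.7% of all probe sets had no overlap. Of these 19, 15 had all eggs below and 4 had all eggs above.

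Xl.23252.1.S1_at had the lowest egg level relative to stage 18. Its intensities were 46.9, 42.7 and 46.0 in eggs, 4264 to 5092 with a median of 4523 in stage 11 controls, and 1502, 236.5, 1643 and 847.1 at stage 18. It was still well above the egg in each stage 18 array, with an egg minus stage 18 difference of -4.21 (log2). Xl.1202.1.S1_at followed, with 22.9, 17.1 and 19.9 in eggs, 1564 to 2794 with a median of 2268 in stage 11 controls, and 695.9, 63.4, 239.2 and 245.8 at stage 18. For both, stage 18 replicate 2 was the lowest of the 4 stage 18 arrays. Xl.4641.1.S1_at ran the other way, with 178.9, 281.7 and 138.7 in eggs, 228.7 to 825.2 with a median of 584.1 in stage 11 controls, and 91.7, 21.5, 138.8 and 48.6 at stage 18. One egg array, at 281.7, exceeded the lowest stage 11 control, at 228.7. Signal over background was not analysed, and 8 members had a group intensity under 16 in eggs or at stage 18, so the size of their folds is uncertain.

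Near the thresholds members and other probe sets lay close together, except on the equatorial limit. On the egg side Xl.4641.1.S1_at was inside at 1.51 and Xl.11586.1.S1_at outside at 1.48. On the stage 18 side Xl.18997.1.A1_at was inside at 1.51 and Xl.6950.1.A1_at outside at 1.45. For the vegetal to animal cap difference, in absolute size, Xl.8362.1.S1_at was inside at 0.98 and Xl.5350.1.S1_a_at outside at 1.02. That outside probe set was higher in caps, yet Xl.5350.1.S1_x_at of the same cluster was a member, at -0.30 (vegetal minus cap). Likewise, Xl.25355.1.S1_at was among the probe sets higher in caps, while Xl.25355.1.S1_x_at was a member at -0.75. For these clusters, the lack of bias thus depended on the probe set. For the equatorial excess Xl.5479.1.A1_at was inside at 0.95 and Xl.19933.2.A1_at outside at 1.66.

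Between tissues the members were spread on both sides of 0, again within limits that the rule set. Vegetal minus animal cap had a median of 0.02 (log2) and ran from -0.98 to 0.94, with 31 members above 0, 26 below, and 35 within 0.5. Vegetal and cap arrays did not overlap in 19 members, 11 with both vegetal arrays higher and 8 with both lower; 48.4% of all probe sets had no overlap. The equatorial mean lay above both other tissues in 16 members, between them in 23 and below both in 18, and all 3 tissue means were within 1 of each other in 50.

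In the median over members, the explants were close to the whole embryo, while single members differed more. Relative to stage 11 controls, the members' median was 0.19 (log2) in vegetal explants, 0.10 in equatorial explants and 0.07 in animal caps. Single members ran from -1.75 to 1.58 in vegetal explants, from -0.80 to 0.70 in equatorial explants and from -0.77 to 1.36 in animal caps. All 57 members stood at least 1 above both eggs and stage 18 controls in equatorial explants, as did 56 in vegetal explants and 55 in animal caps. The rule used the egg, stage 18 and explant levels, so these counts are partly set by it and lend no separate support. In the plot of members by array, the explant and injected arrays all sit far above the egg and stage 18 arrays.

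**Figure D2:**
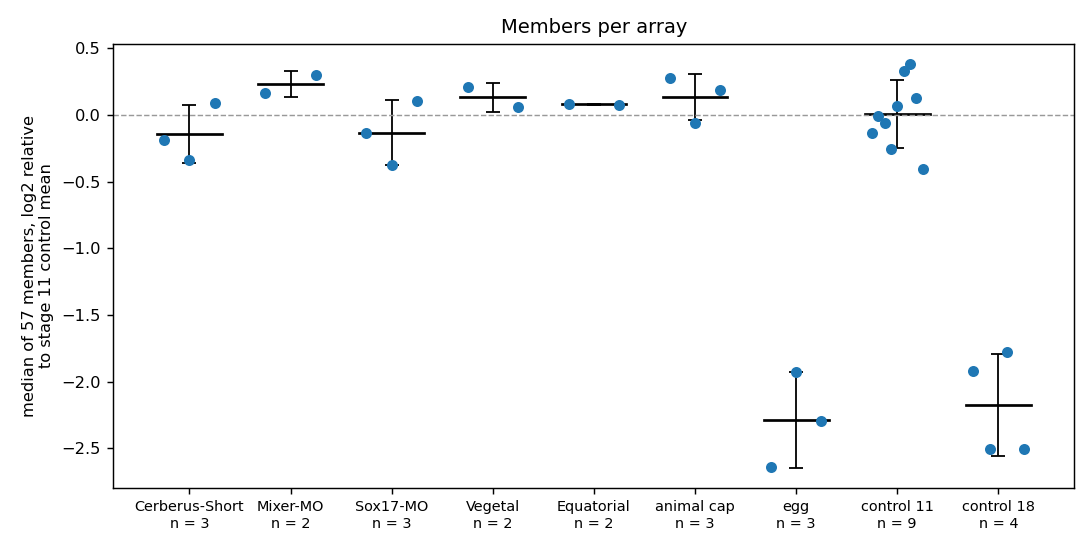
Median over the 57 members of the log2 level relative to the stage 11 control mean, for each array (points), with group means (bars) and SD (whiskers). Arrays of injected embryos, explants and stage 11 controls lie between -0.40 and 0.38, while eggs and stage 18 controls lie between -2.64 and -1.78.

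Equatorial tissue departed most from the other explants in a few members. Xl.5479.1.A1_at had 556.1 and 462.9 in equatorial explants, against 83.2 and 214.9 in vegetal explants and 238.5, 425.1 and 178.4 in animal caps. Both equatorial arrays were above every other explant, and the equatorial mean was 1.44 (log2) above the mean of the other tissues. Xl.3878.1.A1_at came next at 0.87, with 147.7 and 258.9 in equatorial explants, against 78.3 and 146.0 in vegetal explants and 125.7, 104.0 and 92.2 in animal caps. Its lower equatorial array was barely above the higher vegetal one. Xl.24168.2.A1_at was lowest, with 229.9 and 390.8 in equatorial explants, against 1287 and 576.5 in vegetal explants and 1270, 958.5 and 817.5 in animal caps. There the equatorial arrays were below every other explant, by 1.63 (log2) on the means. Xl.4414.1.A1_at, at -1.47, had 81.7 and 47.7 in equatorial explants, 309.7 and 184.5 in vegetal explants, and 119.5, 64.3 and 249.8 in animal caps, so that 1 equatorial array overlapped the caps.

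The injected embryos were compared with controls to see whether these transcripts changed after the Nodal block or with morpholinos against Mixer or Sox17. Injection was vegetal, but whole embryos were pooled, and members had similar levels in vegetal and animal cap explants. A loss confined to vegetal cells would therefore be diluted, and a lack of change does not show independence of these factors. Across the 3 injected groups, 54 of the 57 members stayed at least 1 (log2) above both eggs and stage 18 controls, and 32 stayed at least 1.5 above. The rule had placed all members at least 1.5 above those stages in controls, 34 of them by less than 2. A small difference can therefore take a member below 1.5, and these counts alone do not measure dependence. All 57 were within 1 of the stage 11 control mean in Cerberus-Short embryos, 55 in Mixer-MO embryos and 53 in Sox17-MO embryos. A change of 1 or more was thus found in 0 members with Cerberus-Short, 2 with Mixer-MO and 4 with Sox17-MO (3.51% and 7.02% in the groups with any), against 0.988%, 3.72% and 1.78% of all probe sets. The comparisons with controls share the same 9 control arrays, which also served the rule, so they are not wholly independent of how the members were chosen. The log2 changes between injected groups do not use the controls' levels, but their standard errors and p-values do draw on the spread of the control arrays, since all groups were fitted together.

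Blocking Nodal ligands moved none of the members past the threshold of a limma adjusted p of 0.05. In Cerberus-Short embryos against stage 11 controls 0 members were called, and 0 had an unadjusted p under 0.05, where 0.329% of all probe sets were called and 2.1% had such a p. The members' median change was -0.13 (log2), against 0.01 over all probe sets, and 47 of 57 were below 0 (82.5%, against 47.0% of all probe sets). That direction comes from group means and did not hold within every title letter: against the control with the same letter, 41 members were higher in the Cerberus-Short array with letter f and 34 in that with D, while 41 were lower in that with H. The 95% interval lay inside a 2-fold change either way for 38 members (66.7%, against 84.0% of all probe sets). For the other 19 it reached a 2-fold change or more. The extremes were -0.61 for Xl.4414.1.A1_at and 0.42 for Xl.25902.1.A1_at (limma adjusted p 1.00 for each).

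The other gastrula-transient probe sets gave different counts in the same comparison. Of the 59 with higher vegetal levels, 21 were called lower and 1 higher in Cerberus-Short embryos, with a median of -1.35. Of the 29 with higher cap levels 0 were called, with 1 at an unadjusted p under 0.05 and a median of -0.09. These counts describe lists chosen on the same arrays, and the difference between lists was not tested. The lists were split by tissue level, which also sets how far a loss in vegetal cells can show in whole embryos. The medians therefore do not compare dependence on Nodal between lists.

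**Figure D3:**
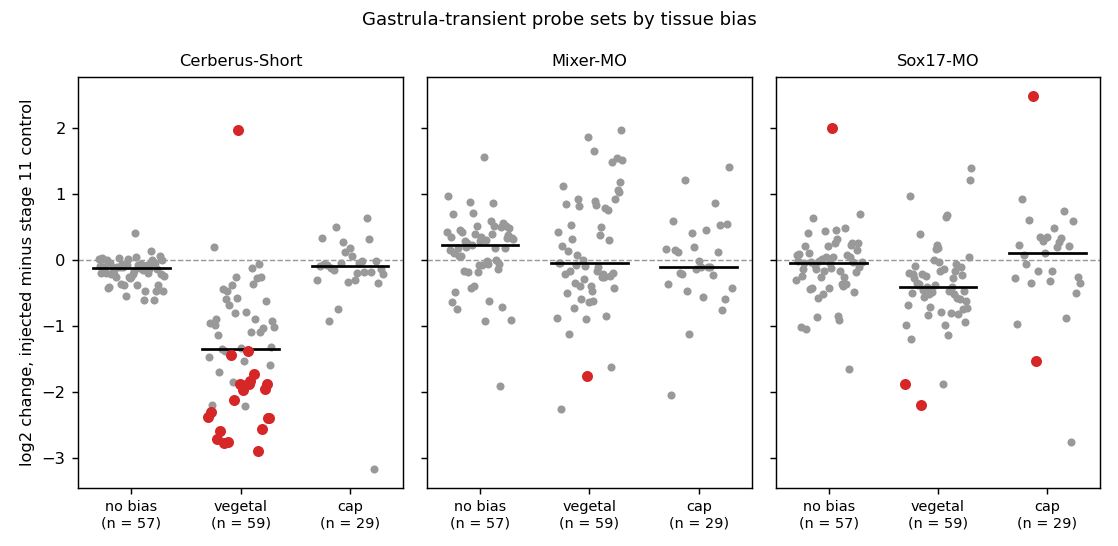
Log2 change of each gastrula-transient probe set in the 3 injected groups relative to stage 11 controls, split by tissue bias; red points passed a limma adjusted p of 0.05 and black bars are medians. The 57 members without bias stay near 0 in Cerberus-Short embryos (median -0.13), while the 59 vegetal probe sets have a median of -1.35. A loss in vegetal cells can show less in whole embryos for members without bias, and the difference between lists was not tested.

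Mixer-MO embryos also gave 0 called members, with 3 higher and 1 lower at an unadjusted p under 0.05 (limma; 0.0646% of all probe sets were called). Of the members 7.02% had such a p, against 8.12% of all probe sets. The median change was 0.24, against -0.01 over all probe sets. With 2 arrays the intervals were wide, and they lay inside a 2-fold change for 18 members (31.6%, against 62.4% of all probe sets). Xl.5479.1.A1_at had the lowest value, -1.90 (SE 0.53, limma adjusted p 0.330), and its arrays disagreed at 53.7 and 268.3. Xl.25902.1.A1_at had the highest, 1.56 (SE 0.57, limma adjusted p 0.503).

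Sox17-MO embryos gave the 1 member that passed against controls. Xl.25902.1.A1_at had intensities of 309.3, 563.2 and 365.6 in Sox17-MO embryos, against 52.1 to 316.9 with a median of 87.3 in stage 11 controls. The groups overlapped in 1 control, replicate 7, at 316.9. The change was 2.00 (log2; SE 0.48, 95% interval 1.01 to 2.99, limma adjusted p 0.0407), a 4.00-fold higher level. In total 1 of 57 members was called, where 0.942% of all probe sets were called (0.258% higher), so the share among members was close to the background. Leaving out single arrays gave changes of 1.75 to 2.21, and the call was lost in 10 of 31 cases: without any 1 of the Sox17-MO arrays, without control replicate 1, 2, 3, 4, 5 or 9, and without egg replicate 3.

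The same member had 235.1 and 371.2 in Mixer-MO embryos and 65.9, 165.9 and 216.5 in Cerberus-Short embryos. Cerberus-Short minus Sox17-MO was -1.58 (SE 0.59, limma adjusted p 0.442). It had 13.8, 10.2 and 11.2 in eggs and 16.2, 16.3, 9.4 and 9.4 at stage 18, so all whole stage 11 embryos were above those stages.

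Xl.5479.1.A1_at had the lowest Sox17-MO value of the members. It had 163.7, 180.5 and 97.8 in Sox17-MO embryos, against 224.1 to 799.9 with a median of 438.1 in stage 11 controls. All Sox17-MO arrays were below all controls, but the change of -1.66 (SE 0.45) did not pass (limma adjusted p 0.0891). It passed with the letter in the array titles as a random block, with array weights, in a fit of the compared groups alone, and without either Mixer-MO array. Its Cerberus-Short arrays, at 565.8, 761.8 and 282.7, lay within the controls' range. Over all members the Sox17-MO median was -0.04, against 0.04 over all probe sets, with 1 higher and 8 lower at an unadjusted p under 0.05 (15.8% of members, against 8.19% of all probe sets). The interval lay inside a 2-fold change for 37 (64.9%, against 76.1% of all probe sets).

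**Figure D4:**
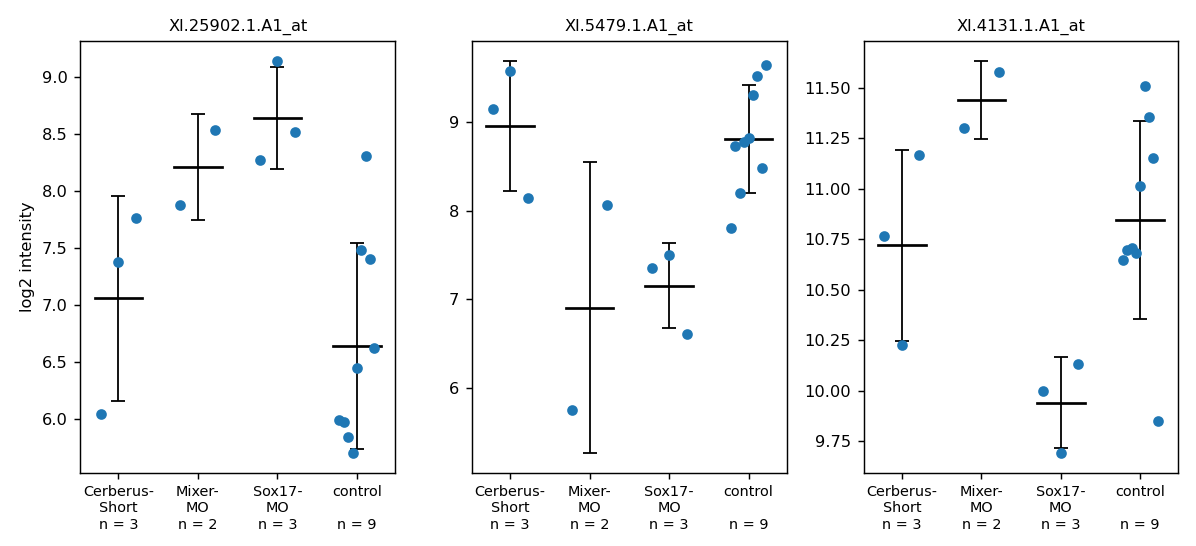
Log2 intensity of 3 members in each array of the injected groups and stage 11 controls (points), with group means (bars) and SD (whiskers); the y axes differ and do not start at 0. Sox17-MO embryos are high for Xl.25902.1.A1_at and low for Xl.5479.1.A1_at, and for Xl.4131.1.A1_at the Mixer-MO and Sox17-MO arrays do not overlap, with 1 Mixer-MO array above all controls and 1 Sox17-MO array below all of them.

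Set directly against each other, the interventions differed in 1 member, called between Mixer-MO and Sox17-MO, whose arrays shared no title letter. Xl.4131.1.A1_at, named above for its stage profile, had 2524 and 3053 in Mixer-MO embryos, against 1022, 826.1 and 1121 in Sox17-MO embryos. Mixer-MO minus Sox17-MO was 1.5 (SE 0.36, 95% interval 0.76 to 2.24, limma adjusted p 0.0445). Stage 11 controls ran from 922.1 to 2911, with 1 Mixer-MO array above that range and 1 Sox17-MO array below it. Neither group was called against them (0.59, adjusted p 0.622 for Mixer-MO; -0.91, adjusted p 0.123 for Sox17-MO, both limma). The 1 call stood against 0.775% of all probe sets (0.639% higher). With the letter in the titles as a fixed block the change was 0.93, but that fit rested on 1 Mixer-MO array, since replicate 1 has no letter. The call was lost in 19 of 31 cases with a single array left out. Those were each Mixer-MO, Sox17-MO, equatorial and egg array, control replicates 1 to 5 and 8, stage 18 replicate 3, animal cap replicate 2 and Cerberus-Short replicate 1, with changes over all 31 cases of 1.36 to 1.64.

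The remaining direct comparisons gave 0 called members by limma. Cerberus-Short against Mixer-MO had 1 higher and 8 lower at an unadjusted p under 0.05 (15.8% of members, against 9.58% of all probe sets), where 0.219% of all probe sets were called. The median was -0.35, against 0.03 over all probe sets. A fixed block for the letter gave -0.06, but that fit rested on 1 Mixer-MO array, since replicate 1 has no letter. The extremes in the main fit were 2.05 for Xl.5479.1.A1_at (limma adjusted p 0.302) and -1.48 for Xl.4414.1.A1_at (limma adjusted p 0.443). Cerberus-Short against Sox17-MO had 3 higher and 4 lower at such a p (12.3% of members, against 6.74% of all probe sets), where 0.484% of all probe sets were called. The median was -0.06, against -0.02 over all probe sets. Its highest value was 1.80, again for Xl.5479.1.A1_at (limma adjusted p 0.227). Mixer-MO against Sox17-MO had a median of 0.25 against -0.06, with 7 higher and 1 lower at an unadjusted p under 0.05 (14.0% of members, against 13.3% of all probe sets).

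When the controls compared were kept out of the choice of members, no member was called in any injected group. The controls held out were those sharing a title letter with the injected arrays, or for Mixer-MO also the control whose title has none. For Cerberus-Short 65 members were then chosen, 55 of them shared with the 57, and their median change was -0.01 (0.116% of all probe sets called). Of these 65, 34 were below 0. For Mixer-MO 52 were chosen, 51 shared, with a median of 0.07 (0% of all probe sets called). For Sox17-MO 62 were chosen, 54 shared, with a median of 0.10 (0.181% of all probe sets called). Xl.25902.1.A1_at stood there at 2.34 (limma adjusted p 0.144), against 3 held-out controls.

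The members varied with the letter that stands in the array titles, whose meaning the labels do not give. Over all probe sets, deviations from each array's own group mean correlated at 0.50 to 0.85 over the 7 pairs of injected and control arrays with the same letter. The 65 pairs of different letters had a median of -0.06 (range -0.79 to 0.51). Over the members alone a different measure was used, deviations from the stage 11 control mean, so the ranges are not compared. These correlated at 0.11 to 0.89 over the same 7 pairs. The lowest were 0.11 for the Cerberus-Short array with letter H and 0.23 for the Sox17-MO array with letter G. Relative to the stage 11 control mean, the members' median was -0.34 in the Cerberus-Short array with letter f and -0.37 in the Sox17-MO array with that letter, against -0.40 in the control with letter f. With letter D it was -0.18 in Cerberus-Short embryos and -0.25 in the control. With letter J it was 0.30 in Mixer-MO embryos and 0.38 in the control. For Sox17-MO it was 0.11 with letter G and -0.13 with letter C, against 0.07 and -0.06 in their controls. Letter H differed more, at 0.09 in Cerberus-Short embryos and 0.33 in the control. The controls stood at 0.01 ± 0.26 (SD, n = 9), and the group values of -0.14 ± 0.22 in Cerberus-Short (SD, n = 3), 0.23 ± 0.10 in Mixer-MO (SD, n = 2) and -0.13 ± 0.24 in Sox17-MO embryos (SD, n = 3) lie within it.

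In all 3 whole stage 11 arrays with letter f, 31 of the 57 members were below the control mean, against 28.6% of all probe sets. In both arrays with letter H, 28 members were above it, against 31.8% of all probe sets. Across the 7 injected arrays set against a control of their own letter, the members' median difference ran from -0.31 to 0.10. The widest was the Cerberus-Short array with letter H, where 10 members differed 2-fold or more, against 6.56% of all probe sets. The arrays with letters f and J also differed in RNA measures, with array medians of 66.7 to 67.3 for f and of 73.9 to 74.4 for J, and a 3' minus 5' beta-actin difference of 0.90 to 1.49 for J. Their part in the members' levels was not tested. Over the 9 controls the members' SD had a median of 0.45 (log2), against 0.34 over all probe sets.

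**Figure D5:**
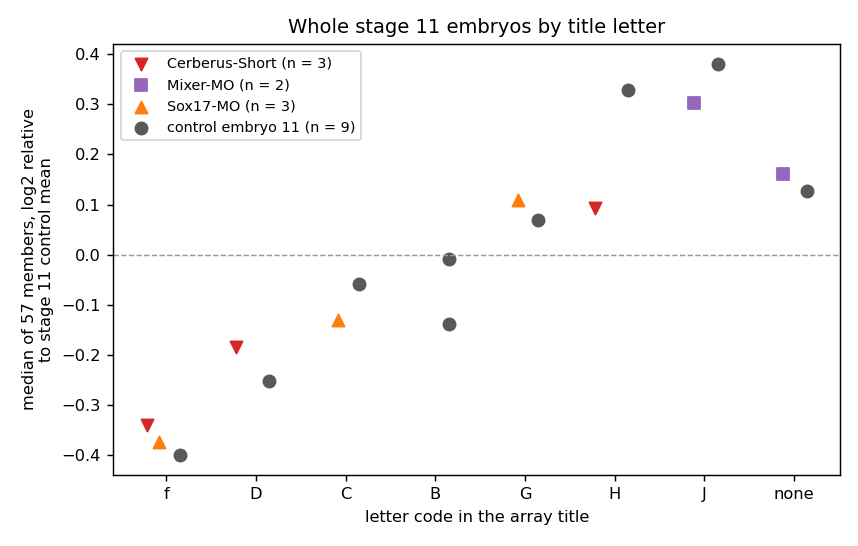
Median over the 57 members of the log2 level relative to the stage 11 control mean, for whole stage 11 embryos, by the letter in the array title. Arrays of letter f are lowest (-0.40 to -0.34) and those of J span 0.30 to 0.38, while for letter H the Cerberus-Short array, at 0.09, lies below the control, at 0.33.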

How the data were processed

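RNA of 31 samples was hybridised to Affymetrix Xenopus laevis arrays, and what was deposited is a table of linear intensities for each probe set. RMA is named in the submitters' processing notes. Intensities of 1000 or more carry a digit-group mark resembling a decimal point. These were restored from their written form, which settled 438140 of 483941 values (90.5%), or from the nearest settled value of the same probe set. Of 5101 hidden values 5095 were recovered. Of the members, 49 had no value assigned in this way. The 18 probe sets with an undecided assignment were kept, and the 120 control probe sets were left out.

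Deposited intensities were put on the log2 scale and modelled group by group (R 4.3.3, and limma 3.58.1 with functions lmFit and eBayes). The main fit had no term for the title letter, although same-letter injected and control arrays correlated at 0.50 to 0.85. Its standard errors, intervals and adjusted p-values therefore treat the arrays as independent. Tests were two-sided, on 22 residual degrees of freedom. P-values were adjusted by Benjamini-Hochberg over all 15491 probe sets. The fit was also run on simulated data with noise independent between arrays, so that run does not cover the correlation within title letters. The 95% intervals are not adjusted. Depth does not apply to arrays, whose number limits the precision. Replicate numbers did not pair the samples. Members and lists were chosen with earlier results of these data known. Named members are those most extreme, or called, in each comparison, those with the largest and smallest stage differences, and those nearest each threshold. Lists of named genes could not be used, as 0 probe sets matched a gene.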

Additional observations from a re-analysis of the deposited data

Results flagged for a closer look

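Xl.4131.1.A1_at differed between interventions in the main fit, with Mixer-MO minus Sox17-MO at 1.5 (log2, 95% interval 0.76 to 2.24, limma adjusted p 0.0445). It was higher in both Mixer-MO arrays than in all 3 Sox17-MO arrays. These groups shared no title letter, so their direct difference also compares letters. With the letter as a fixed block the difference was 0.93, resting on 1 Mixer-MO array, since replicate 1 has no letter. The call was lost with the letter as a random block (limma adjusted p 0.121). It was also lost in 19 of 31 cases with a single array left out. Of 28 groups of values, from named members or the members' median, tested for an array far from the others, 0 held one. Only groups of 4 or more arrays were tested, which are the stage 11 and stage 18 controls. The injected, explant and egg arrays were therefore not covered.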

How the results depend on the processing

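No called change reversed. In Cerberus-Short against Mixer-MO, a fixed block for the letter took the members' median from -0.35 to -0.06. That fit rested on 1 Mixer-MO array, since replicate 1 has no letter. Omitting single arrays left that median between -0.52 and -0.30. The members' median in Sox17-MO against controls, -0.04, changed sign, running from -0.18 to 0.05 with single arrays left out and reaching 0.10 with held-out controls. In Sox17-MO embryos against stage 11 controls, where 1 member was called, 2 were called with the compared groups alone, 2 with a random block for the title letter, 3 with array weights, and 2 without letter f arrays. Xl.25902.1.A1_at was not among those called with the compared groups alone (adjusted p 0.0956) or without letter f (adjusted p 0.371). None (0) was called without probe sets holding assigned values, which removed Xl.25902.1.A1_at, or with held-out controls. Leaving out single arrays gave 0 to 2. In Mixer-MO against Sox17-MO, the 1 call became 0 with quantile normalization and with the compared groups alone. It was also 0 with a random block for the title letter and without letter f arrays, and 0 to 1 with single arrays left out. A fixed block for the letter, or leaving out letter J, rested on 1 Mixer-MO array, with Xl.4131.1.A1_at at 0.93 and 1.36. Cerberus-Short against Sox17-MO gave 1 with the letter as a fixed block (Xl.25902.1.A1_at, -1.84, limma adjusted p 0.00814). The replicate block gave 1 in Mixer-MO against controls (Xl.25902.1.A1_at, 2.33, limma adjusted p 0.0386). That change, 1.56 in the main fit, ran from 0.23 to 2.33 over 46 alternatives. In the pair with letter J, this member had 371.2 in Mixer-MO replicate 2 and 316.9 in control replicate 7. Over all probe sets, deviations of same-numbered injected and control arrays correlated at -0.48 to 0.44, over 0.1 in 2 of 8 pairs. Those of the same title letter correlated at 0.50 to 0.85, over 0.1 in 7 of 7. Those of different letters ran from -0.79 to 0.51, over 0.1 in 22 of 65. The causes were not tested. The rule kept 187 probe sets with a stage threshold of 1, 23 with 2, and 35 with a tissue threshold of 0.5, and 45 to 69 with single arrays left out. The alternatives without letter f or J arrays were chosen after seeing the data. Xl.25902.1.A1_at in Sox17-MO embryos stayed between 1.75 and 2.67 over 46 alternatives (adjusted p 0.00063 to 0.371).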
